A study of Sus scrofa with 8 samples.

Results

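Aquaporins are membrane channels for water, and the report covers AQP1, AQP3, AQP4, AQP5 and AQP11 in the olfactory epithelium of newborn pigs. They were taken by gene symbol, a rule that uses no measured value, and are 5 of the 25880 pig genes in the deposited count table, and all 5 passed the filter on low counts. RNA-seq libraries came from 4 CFTR-knockout piglets (numbered 6, 18, 20 and 21) and 4 wild-type piglets (numbered 5, 9, 12 and 23). The gene CFTR codes for an anion channel of epithelial cells, and its loss causes cystic fibrosis. Per the labels the knockout piglets were CFTR-null and all animals were newborn, and the tissue was dissected and snap frozen. The labels name no strain, litter, sex or batch, and every library carries its own piglet number. The dissected tissue contains several cell types, so fewer cells of a type and less RNA per cell cannot be told apart in any value below.

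Water follows salt across an epithelium by osmosis, and aquaporins set how readily it passes through the cell membranes. AQP1, AQP4 and AQP5 are selective for water. AQP3, AQP7, AQP9 and AQP10 also pass glycerol and are called aquaglyceroporins. AQP11 is a divergent member that resides mainly in the endoplasmic reticulum. In the nose of rodents AQP1 is known from blood vessels and connective tissue, AQP4 from supporting and basal cells, and AQP5 from the Bowman glands, which make the mucus that bathes the olfactory cilia. AQP3 is widely found in basal cells of airway and skin epithelium. CFTR lies upstream of this system as a route for the chloride that water follows.

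Library totals were 39915150 to 43253395 counts in knockout piglets and 30836904 to 42281883 counts in wild-type piglets. Levels between libraries are given as CPM, which are counts relative to library size after TMM scaling. Mature olfactory neuron markers were abundant everywhere, and their sum over 8 genes was 5221 to 6121 CPM in knockout piglets and 3253 to 5195 CPM in wild-type piglets. Among them CNGA2, a subunit of the cation channel that opens on odour signalling, was 412 to 512 CPM in knockout and 231 to 411 CPM in wild-type piglets, while OMP was not matched to an identifier. The part of this difference in neuron markers in the values below was not tested. Some libraries stood apart. In knockout piglet 18 fibroblast markers summed to 22244 CPM and bone markers to 6692 CPM, against 711 to 1339 CPM and 193 to 349 CPM in the other knockout piglets. Wild-type piglet 5 had the highest summed endothelial and gland markers and the lowest summed neuron markers of the 8 libraries (3253 CPM, against 4253 to 6121 CPM in the others). Values without these libraries are given beside the results that they moved most.

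CFTR itself was 6.31, 5.24, 7.43 and 8.37 CPM in knockout piglets 6, 18, 20 and 21, against 56.6, 34.3, 34.0 and 36.6 CPM in wild-type piglets 5, 9, 12 and 23. Every knockout value lay below every wild-type value. On the log2 scale it fell by 2.56 ± 0.21 (SE; edgeR quasi-likelihood test, adjusted p = 0.0121 by Benjamini-Hochberg). That adjusted p was 0.122 without knockout piglet 6 and 0.0544 without knockout piglet 20. It was the only gene of 17175 tested that edgeR called at an adjusted p under 0.05, which is 0.00582% of them.

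Aquaporin transcripts differed widely in abundance, and their order was the same in all 8 libraries. Levels of different genes were compared as TPM, which divides counts by the exon length given in the table. AQP3 was highest, with 428 ± 106 TPM in knockout and 543 ± 60.4 TPM in wild-type piglets (SD, n = 4 each). AQP1 followed with 224 ± 67.7 TPM in knockout and 324 ± 142 TPM in wild-type piglets. AQP5 had 97.7 ± 13.1 TPM in knockout and 120 ± 20.7 TPM in wild-type piglets. AQP11 had 64.0 ± 13.1 TPM in knockout and 66.5 ± 4.69 TPM in wild-type piglets. AQP4 was far lower, at 4.54 ± 0.505 TPM in knockout and 4.29 ± 0.807 TPM in wild-type piglets.

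Over the 8 libraries the ranges of AQP3 (279 to 630 TPM) and AQP1 (160 to 537 TPM) overlapped, although AQP3 exceeded AQP1 within each library, by 1.17 to 3.30 times. The ranges of AQP5 (80.5 to 150 TPM) and AQP11 (47.8 to 76.3 TPM) did not overlap with each other or with those of their neighbours in this order. AQP4 ranged from 3.24 to 5.27 TPM. Its range overlapped with that of AQP9 (1.40 to 4.07 TPM), the only other family member that passed the filter, while within each library AQP4 was the higher. By mean TPM, AQP3 ranked 197 and AQP1 ranked 413 of the 17175 genes tested, whereas AQP4 exceeded 24.2% of them. AQP3 alone made up 51.6% ± 7.53 of the summed aquaporin TPM in knockout piglets and 51.7% ± 3.4 in wild-type piglets (SD, n = 4 each). AQP1 and AQP3 were close in knockout piglet 18 and in wild-type piglet 5, with AQP3 at 1.17 times AQP1 in each.

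**Figure D1:**
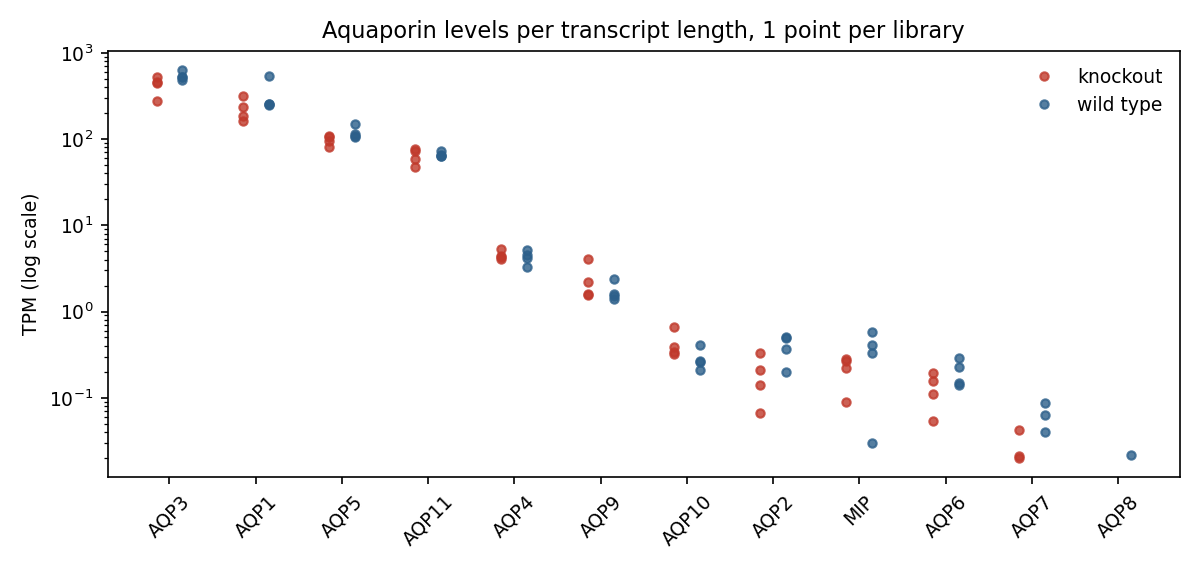
TPM of the 12 aquaporin genes with a row in the table, on a log axis, with 1 point per library (knockout left, wild type right of each pair, n = 4 each; libraries with 0 reads are not drawn). AQP3, AQP1, AQP5 and AQP11 lie above 40 TPM in every library, AQP4 and AQP9 between 1.40 and 5.27 TPM, and the rest below 1 TPM.

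The rest of the family was close to absent. MIP (the lens aquaporin), AQP2 (the water channel of the renal collecting duct), AQP6, AQP7 (named by its position), AQP8 and AQP10 had between 0 and 18 reads in any library and did not pass the filter. AQP2 summed to 11 reads in knockout and 21 reads in wild-type piglets, and AQP6 to 19 reads in knockout and 28 reads in wild-type piglets. AQP10 summed to 26 reads in knockout and 16 reads in wild-type piglets, and MIP to 28 reads in knockout and 40 reads in wild-type piglets. AQP7, which exports glycerol from fat cells, summed to 4 reads in knockout and 9 reads in wild-type piglets. AQP8 had 0 reads in the knockout piglets, which allows up to 0.0181 CPM over the 4 libraries (3 counts, counting error only), and 1 read in wild-type piglet 9. AQP12 was not matched to an identifier and was not analysed here.

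Of the water-selective channels, AQP1 had the lowest fold change of the 5 genes and the widest spread. AQP1 (ENSSSCG00000033190, chromosome 18, 42062327 to 42076551 on the minus strand, in the file's own coordinates, whose build no label or header names) was 200, 385, 395 and 251 CPM in knockout piglets 6, 18, 20 and 21, against 689, 329, 335 and 339 CPM in wild-type piglets 5, 9, 12 and 23. Wild-type piglet 5 stood far above all other libraries, knockout piglets 18 and 20 lay above the other 3 wild-type piglets, and knockout piglets 6 and 21 lay below all wild-type piglets. Its log2 fold change was -0.46 ± 0.30 (SE, edgeR adjusted p = 0.549), with a 95% interval from -1.14 to 0.22 and an exact permutation p of 0.314 (two-sided). Without wild-type piglet 5 it was -0.13 ± 0.23 (edgeR adjusted p = 0.806), and without that library and knockout piglet 18 it was -0.25 ± 0.22 (edgeR adjusted p = 0.605). Without knockout piglet 20, the highest of its group, it was -0.60 ± 0.33 (edgeR adjusted p = 0.563). The within-group SD of AQP1 on the log2 CPM scale, 0.50, exceeded that of 80.0% of the genes tested, whose median was 0.23.

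Markers of endothelium, the lining of blood vessels where AQP1 is found, were measured beside it. The 8 matched markers summed to 219, 331, 315 and 263 CPM in knockout piglets 6, 18, 20 and 21, and to 463, 239, 231 and 265 CPM in wild-type piglets 5, 9, 12 and 23. Wild-type piglet 5 was highest and knockout piglet 6 was lowest for AQP1 and for these markers alike. All 8 had reads in every library, and VWF and CLDN5 were not matched to an identifier. Red blood cells also carry AQP1, and 7 of 8 erythroid markers had a row, with a sum of 83.1 to 303 CPM in knockout and 40.0 to 127 CPM in wild-type piglets. Of these HBB, the beta-globin gene, was 75.7, 289.7, 107 and 133 CPM in knockout piglets, against 78.1, 42.7, 33.8 and 116 CPM in wild-type piglets, in the same order of piglets. Its highest library was knockout piglet 18, not wild-type piglet 5. The part of vessel or blood content in the AQP1 values was not tested.

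**Figure D2:**
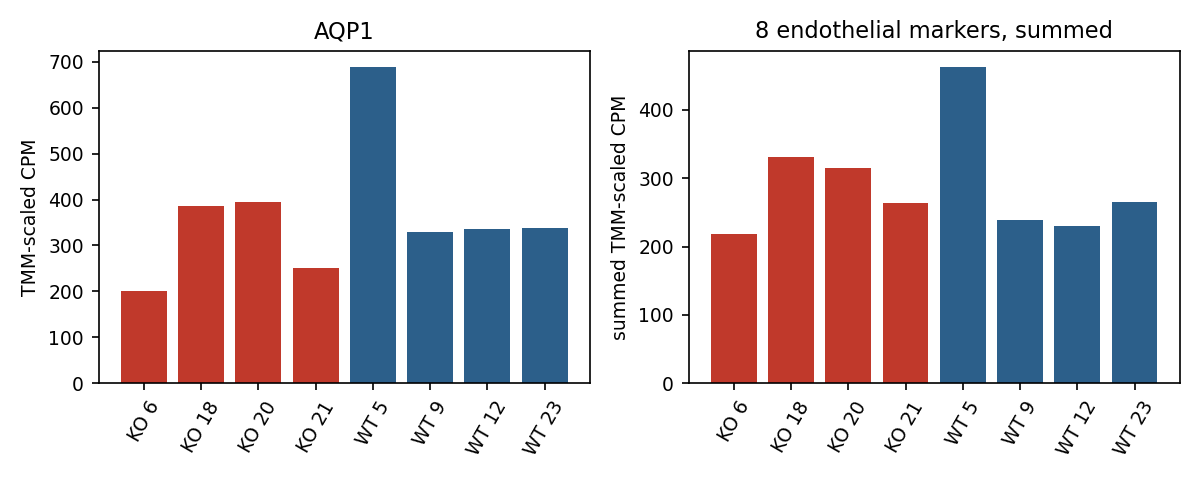
AQP1 (left) and the sum of 8 endothelial marker genes (right) in TMM-scaled CPM, 1 bar per piglet, with the 4 knockout piglets left of the 4 wild-type piglets. Wild-type piglet 5 has the highest bar in each panel, 689 CPM for AQP1 and 463 CPM for the markers.

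AQP5, the apical water channel of secretory glands, was slightly lower on average in knockout piglets without passing the test. AQP5 (ENSSSCG00000000211, chromosome 5, 15876401 to 15881332 on the plus strand) was 93.6, 91.8, 84.0 and 105 CPM in knockout piglets 6, 18, 20 and 21, against 96.1, 139, 105 and 102 CPM in wild-type piglets 5, 9, 12 and 23. Of the knockout values, 3 lay below the lowest wild-type value, and knockout piglet 21 lay within the wild-type range. Wild-type piglet 9 was the highest of the 8. For AQP5 the log2 fold change was -0.24 ± 0.12 (SE, edgeR adjusted p = 0.481), with a 95% interval from -0.52 to 0.042. The exact permutation p was 0.143 (two-sided). Without wild-type piglet 9 it was -0.11 ± 0.09 (edgeR adjusted p = 0.800).

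Markers of glands and of airway secretory cells were measured beside AQP5. The 11 gland markers summed to 429, 322, 602 and 459 CPM in knockout piglets 6, 18, 20 and 21, and to 1335, 570, 261 and 510 CPM in wild-type piglets 5, 9, 12 and 23. Wild-type piglet 5 had the highest sum of gland markers and the lowest AQP5 of the wild-type group. The 6 respiratory secretory markers summed to 217 to 277 CPM in knockout and 232 to 569 CPM in wild-type piglets. Of the 5 that were tested 4 had a log2 fold change below 0, with a median of -0.60 that was 0.068 without wild-type piglet 5. TFF3, a mucus peptide, was 40.7 ± 10.6 CPM in knockout and 61.9 ± 10.3 CPM in wild-type piglets (SD, n = 4 each, edgeR adjusted p = 0.393). Its groups did not overlap, which held for 5.81% of all genes tested. AGR2, which helps fold mucins, was 143 ± 27.4 CPM in knockout and 259 ± 113 CPM in wild-type piglets (edgeR adjusted p = 0.407). TFF3 and AGR2 had the smallest p of this list. The log2 fold change was 0.014 for SPDEF, -0.098 for MUC5AC (named by position) and -0.98 for SCGB3A1, which reached at most 1.51 CPM. The part of gland or secretory cell content in the AQP5 values was not tested. AQP5 stands between AQP2 and AQP6 on the chromosome, 7836 and 6615 bases away, with no overlap in exons, and these neighbours were at 11 reads or fewer in every library.

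AQP4, the water channel of astrocyte end-feet and of basolateral membranes in airway epithelium, did not differ beyond the spread between piglets. AQP4 (ENSSSCG00000035965, chromosome 6, 111406381 to 111422174 on the minus strand) was 11.5, 13.8, 13.8 and 12.2 CPM in knockout piglets 6, 18, 20 and 21, against 11.1, 8.80, 12.4 and 14.3 CPM in wild-type piglets 5, 9, 12 and 23. All 4 knockout values lay within the wild-type range. The log2 fold change of AQP4 was 0.14 ± 0.16 (SE, edgeR adjusted p = 0.735), with a 95% interval from -0.22 to 0.50, and its exact permutation p was 0.486 (two-sided). It was 0.024 ± 0.14 (edgeR adjusted p = 0.974) without wild-type piglet 9, the lowest library, and 0.25 ± 0.16 (edgeR adjusted p = 0.681) without wild-type piglet 23, the highest.

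Supporting cell markers summed to 1286 to 1583 CPM in knockout and 1484 to 1816 CPM in wild-type piglets over 7 genes with a row. These genes disagreed, with 2 log2 fold changes above 0 and 5 below. The keratin KRT8 gave the largest part of the sum, 556 ± 57.3 CPM in knockout and 748 ± 166 CPM in wild-type piglets (SD, n = 4 each). Skeletal muscle and brain, which also contain AQP4, were checked through their markers. Of 3 skeletal muscle markers with a row, CKM and TNNT3 stayed under 1 CPM in every library, while ACTA1 was 125 ± 11.7 CPM in knockout and 123 ± 28.9 CPM in wild-type piglets (SD, n = 4 each). The 4 astrocyte markers summed to 146 to 436 CPM in knockout and 185 to 382 CPM in wild-type piglets. Their log2 fold changes were 0.84 for ALDH1L1, 0.79 for SLC1A2, -0.093 for GJA1 and -0.44 for GFAP, which olfactory ensheathing glia also express, with a median of 0.35. The part of these cells in the AQP4 values was not tested.

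AQP3, which passes glycerol and hydrogen peroxide as well as water, had the smallest unadjusted p of the 5 genes. AQP3 (ENSSSCG00000040513, chromosome 10, 33045247 to 33053995 on the plus strand) was 822, 561, 705 and 771 CPM in knockout piglets 6, 18, 20 and 21, against 1006, 854, 864 and 816 CPM in wild-type piglets 5, 9, 12 and 23. Knockout piglet 6 lay just above the lowest wild-type piglet, and the other 3 knockout piglets lay below all wild-type piglets. AQP3 had a log2 fold change of -0.31 ± 0.13 (SE), with a 95% interval from -0.61 to -0.0050, which corresponds to 65.5% to 99.7% of the wild-type level. The edgeR p was 0.0470 unadjusted and 0.443 adjusted over all genes, and the two-sided exact permutation p was 0.0571. An unadjusted p under 0.05 was reached by 11.2% of all genes tested, with 5.4% on the higher and 5.8% on the lower side.

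The AQP3 difference varied with the libraries kept. Its log2 fold change was -0.21 ± 0.11 (edgeR adjusted p = 0.457) without knockout piglet 18, the lowest library, and -0.25 ± 0.14 (edgeR adjusted p = 0.455) without wild-type piglet 5, the highest. Without both it was -0.15 ± 0.10 (edgeR adjusted p = 0.504). Leaving out the lowest knockout or the highest wild-type library brings the group means closer by construction, so these smaller values carry no test. The AQP3 log2 fold change was -0.38 ± 0.14 (edgeR adjusted p = 0.623) without knockout piglet 6, the highest of its group. Without wild-type piglet 23, the lowest of its group, it was -0.35 ± 0.15 (edgeR adjusted p = 0.620). Markers of horizontal basal cells, the reserve stem cells of the epithelium, were summed over 6 genes with a row. The sums were 210, 155, 225 and 220 CPM in knockout piglets 6, 18, 20 and 21, against 207, 177, 194 and 212 CPM in wild-type piglets 5, 9, 12 and 23. Knockout piglet 18 was the lowest library for these markers as well as for AQP3. Knockout piglets 20 and 21 lay above all wild-type piglets for these markers but below all of them for AQP3. Of their log2 fold changes 3 were above 0 and 3 below, with a median of 0.062. TP63, the transcription factor that defines basal cells, was at -0.23, KRT15 at -1.55, ITGB4 at -0.012, CDH3 at 0.14, ITGA6 at 0.16 and ICAM1 at 0.45, while KRT5 and KRT14 were not matched to an identifier. The part of basal cell content in the AQP3 values was not tested.

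AQP9, the aquaglyceroporin of liver and leukocytes, was the remaining family member with enough reads to test. It was 4.03, 3.62, 2.89 and 7.99 CPM in knockout piglets 6, 18, 20 and 21, against 4.45, 2.66, 2.999 and 2.91 CPM in wild-type piglets 5, 9, 12 and 23. Knockout piglet 21 was highest, and the other 3 knockout values lay within the wild-type range. Its log2 fold change was 0.51 ± 0.34 (SE, edgeR adjusted p = 0.550), and 0.11 without knockout piglet 21. Its span overlaps that of ALDH1A2 on the opposite strand, without shared exon bases.

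AQP11, the endoplasmic reticulum member whose loss in mice gives cystic kidneys, had nearly equal means in the genotypes, 49.5 ± 7.16 CPM in knockout and 49.9 ± 3.51 CPM in wild-type piglets (SD, n = 4 each). AQP11 (ENSSSCG00000014880, chromosome 9, 12065186 to 12077338 on the plus strand) was 54.6, 44.2, 42.6 and 56.7 CPM in knockout piglets 6, 18, 20 and 21, against 47.9, 55.1, 47.7 and 48.9 CPM in wild-type piglets 5, 9, 12 and 23. The knockout values fell on each side of the wild-type ones, with 2 below all of them and 1 above. The log2 fold change of AQP11 was -0.0097 ± 0.11 (SE, edgeR adjusted p = 0.980), with an exact permutation p of 0.914 (two-sided). Its 95% interval, from -0.26 to 0.24, corresponds to 83.5% to 118% of the wild-type level. The within-group SD of AQP11 was 0.16 on the log2 CPM scale, the smallest of the 5 genes.

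**Figure D3:**
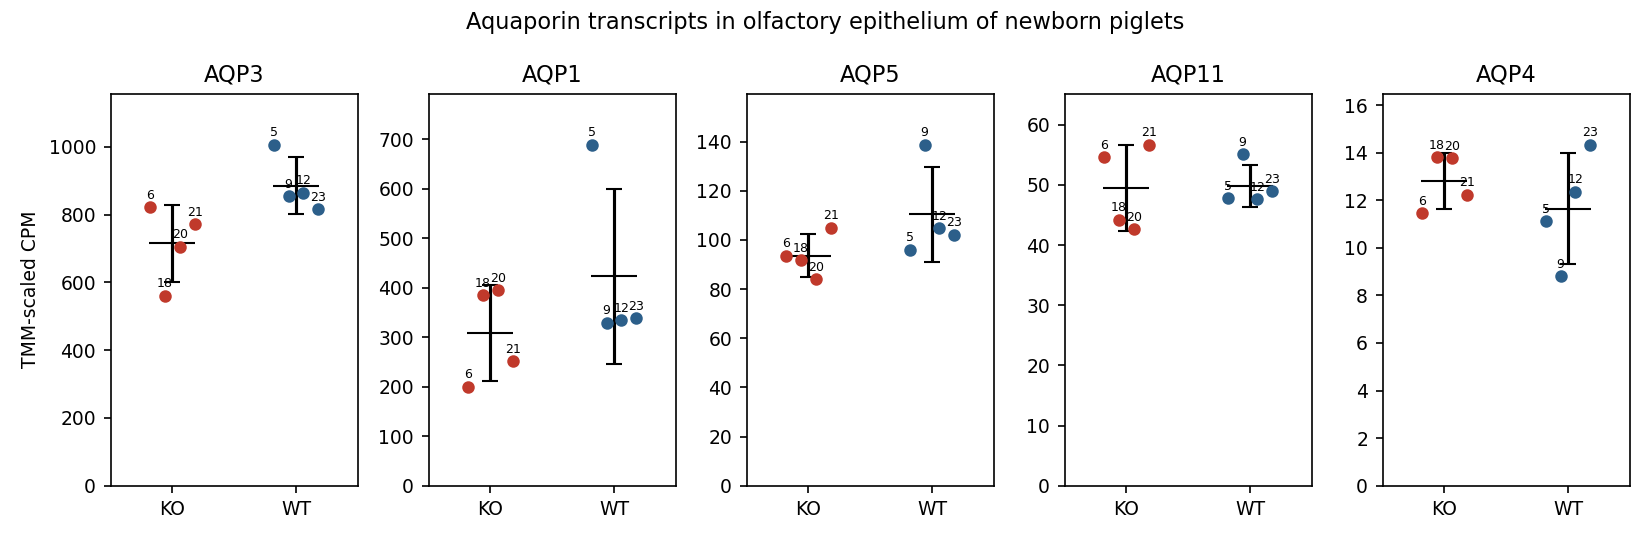
TMM-scaled CPM of the 5 aquaporins in 4 CFTR-knockout (KO, left) and 4 wild-type (WT, right) piglets, each point labelled with its piglet number, with the mean (bar) and SD (whiskers); each panel has its own axis from 0. The groups overlap in all 5 genes, and wild-type piglet 5 stands apart for AQP1 at 689 CPM.

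Set side by side, 4 of the 5 aquaporins had a log2 fold change below 0 and 1 above, with a median of -0.24, while the median over all 17175 genes was 0.0098 and 48.4% of genes were below 0. That median of the aquaporins came to -0.13 when wild-type piglet 5 was left out and to -0.11 when wild-type piglet 9 was. It came to -0.30 when knockout piglet 21 was left out. Leaving out wild-type piglet 5 together with knockout piglet 18 gave -0.15. None of the 5 was called by edgeR at an adjusted p under 0.05, and none by DESeq2 or by limma with sample quality weights. DESeq2 called 1.31% of the genes it tested. At an unadjusted edgeR p under 0.05 there was 1 of the 5, AQP3. The groups did not overlap in 5.81% of all genes (2.45% higher and 3.36% lower in knockout piglets) and in 0 of the 5 aquaporins. With 4 piglets against 4 the smallest two-sided p that an exact permutation can give is 0.0286. The intervals leave room for AQP1 at 45.3% to 117% of the wild-type level, AQP5 at 69.8% to 103% of it and AQP4 at 85.6% to 141% of it.

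**Figure D4:**
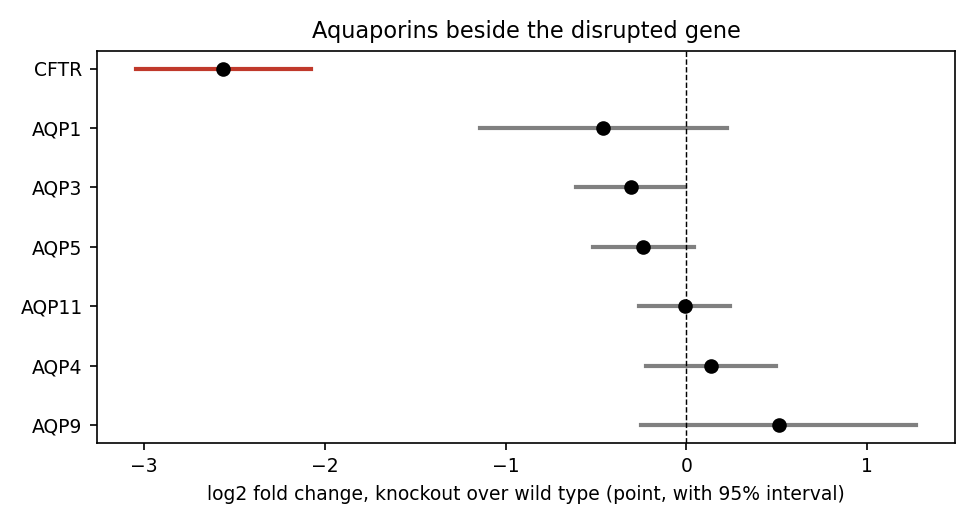
Log2 fold changes of knockout over wild type (points) with 95% intervals (lines) from edgeR for CFTR, the 5 aquaporins and AQP9. The interval of CFTR runs from -3.04 to -2.08, that of AQP3 ends at -0.0050, and those of AQP1, AQP5, AQP11, AQP4 and AQP9 include 0.

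The genes whose centred log2 CPM differed least from each aquaporin over the 8 libraries were named by the root mean square difference, over 13166 named genes averaging 1 CPM or more. Genes picked this way must lie below the median difference, so their likeness carries no test. For AQP3 these were ITGA3, the laminin-binding integrin subunit (0.10), PAX6, a transcription factor of olfactory progenitors and supporting cells (0.10), and NHERF1, a scaffold that binds CFTR (0.10), against a median of 0.30 over all genes compared. For AQP1 they were CCDC141 (0.14), the T-type calcium channel subunit CACNA1G (0.16) and the kinase MAP3K20 (0.17), with a median of 0.52. For AQP5 they were the translation factor EIF4A1 (0.045), the ribosome biogenesis gene NOC4L (0.052) and ATAD3A, a mitochondrial membrane ATPase (0.057), with a median of 0.28. For AQP11 they were CYB561, a vesicle cytochrome (0.039), ATP6V0D1, a subunit of the vacuolar proton pump (0.047), and DHRS13 (0.050), with a median of 0.24. For AQP4 they were ERO1B, an oxidase of the endoplasmic reticulum (0.060), CHST9 (0.089), which is also its nearest neighbour on the chromosome at 42952 bases, and ABCD4 (0.091), with a median of 0.29.

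Genes that anchor AQP4 in the membrane were followed next. AQP4 is held by the dystrophin complex, and of 8 measured genes of that complex and its partners 6 had a log2 fold change above 0, with a median of 0.12. Leaving out knockout piglet 20 gave a median of 0.043, leaving out wild-type piglet 9 gave 0.034 and leaving out wild-type piglet 12 gave 0.058. With wild-type piglet 5 and knockout piglet 18 both left out it was 0.22. None was called by edgeR, DESeq2 or limma. Over all genes edgeR called 0.00582%, and DESeq2 called 1.31% of those it tested. A lack of calls in so short a list therefore says little about its genes. An unadjusted edgeR p under 0.05 was reached by 1 of the 8, and by 11.2% of all genes tested. That gene was DTNA, which encodes the linker dystrobrevin, with 175, 124, 141 and 145 CPM in knockout piglets 6, 18, 20 and 21, against 123, 117, 121 and 132 CPM in wild-type piglets 5, 9, 12 and 23. Knockout piglet 18 lay below the highest wild-type piglet, so the groups overlapped, and the log2 fold change was 0.25 ± 0.10 (edgeR adjusted p = 0.431). DMD, dystrophin itself, was 13.6 ± 3.10 CPM in knockout and 16.6 ± 4.12 CPM in wild-type piglets (SD, n = 4 each). AGRN, the matrix protein agrin, was 169 ± 34.0 CPM in knockout and 151 ± 21.2 CPM in wild-type piglets.

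Genes for the vesicle traffic and membrane retention of aquaporins had 4 of 10 log2 fold changes above 0 and a median of -0.038. None was called by edgeR (0.00582% of all genes tested), DESeq2 (1.31% of those it tested) or limma (11 of 17175 genes). An unadjusted edgeR p under 0.05 was reached by 1 of the 10, and by 11.2% of all genes tested. VAMP8, a vesicle fusion protein of secretory cells named by position, was 58.1 ± 5.95 CPM in knockout and 68.2 ± 6.62 CPM in wild-type piglets (SD, n = 4 each). Its log2 fold change was -0.23 ± 0.10 (edgeR adjusted p = 0.438). MAL, a protein of apical sorting named by position, was 6.29 ± 2.02 CPM in knockout and 9.06 ± 2.15 CPM in wild-type piglets. VAMP2, another vesicle fusion protein, was 256 ± 25.9 CPM in knockout and 224 ± 44.3 CPM in wild-type piglets.

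Genes that respond to osmotic stress were measured as a further list. NFAT5 is the transcription factor that cells use in hypertonic surroundings, and its known targets import or make organic osmolytes. Of 11 genes in this list 7 had a log2 fold change above 0, with a median of 0.053. None was called by edgeR, DESeq2 or limma or had an unadjusted edgeR p under 0.05. Over all genes tested edgeR called 0.00582%, and 11.2% had an unadjusted edgeR p under 0.05. DESeq2 called 1.31% of the genes it tested, so a lack of calls here says little about the list. The taurine transporter SLC6A6 was 196, 142, 186 and 207 CPM in knockout piglets 6, 18, 20 and 21, against 171, 118, 169 and 96.8 CPM in wild-type piglets 5, 9, 12 and 23. All but knockout piglet 18 lay above the wild-type values, and the log2 fold change was 0.40 ± 0.20 (edgeR adjusted p = 0.463). The inositol transporter SLC5A3, named by position, was 12.7 ± 4.23 CPM in knockout and 9.02 ± 2.49 CPM in wild-type piglets (SD, n = 4 each). WNK1, a chloride-sensing kinase, was 297 ± 23.9 CPM in knockout and 265 ± 32.3 CPM in wild-type piglets.

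The channels of cell volume control had 4 of 7 log2 fold changes above 0 and a median of 0.028. None was called by edgeR (0.00582% of all genes tested), DESeq2 (1.31% of those it tested) or limma (11 of 17175 genes). At an unadjusted edgeR p under 0.05 there was none either, against 11.2% of all genes tested. LRRC8 proteins form the volume-regulated anion channel, and LRRC8B was 25.4 ± 4.18 CPM in knockout and 20.2 ± 4.75 CPM in wild-type piglets (SD, n = 4 each). LRRC8D was 225 ± 32.8 CPM in knockout and 206 ± 26.9 CPM in wild-type piglets. PIEZO1, a stretch-gated cation channel, was 46.3 ± 14.1 CPM in knockout and 59.2 ± 5.57 CPM in wild-type piglets.

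Glycerol metabolism, which uses what the aquaglyceroporins carry, had 6 of 9 log2 fold changes below 0 and a median of -0.082. None was called by edgeR (0.00582% of all genes tested), DESeq2 (1.31% of those it tested) or limma (11 of 17175 genes). An unadjusted edgeR p under 0.05 was reached by 2, each on the lower side, where the share over all genes was 5.8% (11.2% on either side). LIPE, the hormone-sensitive lipase that frees glycerol from fat, was 3.94, 5.55, 5.13 and 4.78 CPM in knockout piglets 6, 18, 20 and 21, against 7.53, 8.23, 5.18 and 6.45 CPM in wild-type piglets 5, 9, 12 and 23. Knockout piglet 18 lay above the lowest wild-type piglet, and the log2 fold change was -0.50 ± 0.19 (edgeR adjusted p = 0.416). GPD1L, a glycerol-3-phosphate dehydrogenase family member, was 44.3 ± 5.28 CPM in knockout and 53.3 ± 4.99 CPM in wild-type piglets (SD, n = 4 each), and its log2 fold change was -0.27 ± 0.11 (edgeR adjusted p = 0.419). PNPLA2, the first lipase of fat breakdown, was 36.6 ± 2.62 CPM in knockout and 33.3 ± 3.22 CPM in wild-type piglets.

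Genes that make or remove hydrogen peroxide, which AQP3 and AQP11 can pass, had 3 of 7 tested log2 fold changes above 0 and a median of -0.016. None was called by edgeR (0.00582% of all genes tested), DESeq2 (1.31% of those it tested) or limma (11 of 17175 genes). None had an unadjusted edgeR p under 0.05, against 11.2% of all genes tested. ERO1A, the oxidase that makes peroxide in the endoplasmic reticulum, was 115 ± 4.37 CPM in knockout and 108 ± 2.07 CPM in wild-type piglets (SD, n = 4 each). CAT, the peroxide-removing catalase, was 157 ± 25.0 CPM in knockout and 176 ± 14.0 CPM in wild-type piglets. The peroxide-making oxidase DUOX1 was 0.945 ± 0.339 CPM in knockout and 1.14 ± 0.511 CPM in wild-type piglets.

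**Figure D5:**
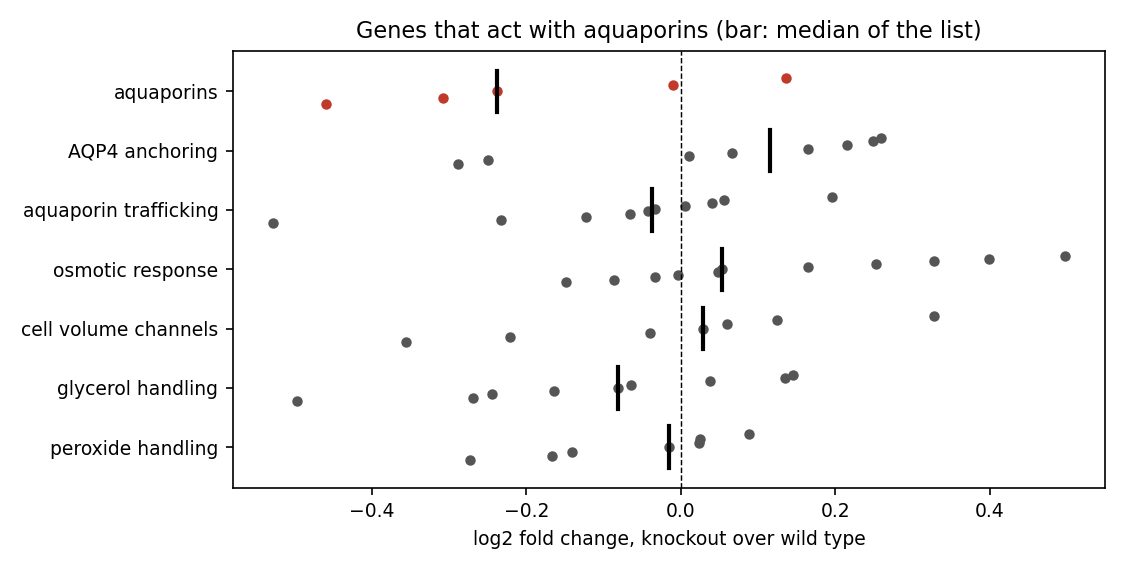
Log2 fold changes of knockout over wild type for the 5 aquaporins (top row) and for the tested genes of 6 lists with roles beside them; each point is a gene and each black bar the median of its list. The medians run from -0.24 for the aquaporins to 0.12 for AQP4 anchoring with all 8 libraries, each of which moves by over 1.5 times when single libraries are left out, and no gene shown was called by edgeR.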

How the data were processed

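The values were computed from raw read counts per gene that the authors deposited for 8 libraries, in a table with the layout of featureCounts output and a gene length column, per the file headers. The tools listed, without role or order, are STAR 2.4.0, Subread 1.5.0-p3, featureCounts, HTSeq, FastQC and DESeq2, per the submitters' processing notes. The genome build and the strand setting are not given in the sources used here, so overlapping and antisense genes are uncertain. RNA was column-purified with DNase treatment and made into TruSeq libraries, per the labels' protocols.

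Only the 25880 pig identifiers entered library sizes and tests. They took at least 99.9982% of reads, and 100 control sequences had 0 reads. Symbols came from a table of gene names for 14857 identifiers. Another 1642 took their symbol from position (spans overlapping a gene of RefSeq assembly Sscrofa11.1 by 50% or more, each way), and these are marked where printed. edgeR 4.0.16 in R 4.3.3 (quasi-likelihood test, TMM, default filter on low counts, genotype as the factor, Benjamini-Hochberg adjustment over 17175 genes) gave the fold changes. Standard errors come from the F statistic. The biological coefficient of variation was 26.5%. TPM used the deposited lengths. The fit was tested on simulated data with known changes. Exact permutation tests used log2 CPM.

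Named genes were CFTR, all aquaporin rows, up to 3 members of each list with the smallest p, and the 3 genes most similar to each aquaporin. Marker lists are given mainly as summed CPM. CKM, TNNT3, GJA1, ITGB4, ITGA6, CDH3, CDH5, TEK, SPDEF, MUC5AC and STOML3 are named outside that rule, with their values seen. The rule for members reads gene symbols only, but the members and lists were chosen with earlier results of these data known. Alternatives comprised DESeq2 1.42.0, limma 3.58.1, other scalings and filters, a robust fit and the omission of libraries. Each group holds 4 piglets, and library totals are given in the report. Fold change intervals include the spread between piglets, whereas the floor of 3 counts covers counting error only.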

Additional observations from a re-analysis of the deposited data

Results flagged for a closer look

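Among 108 groups of 4 libraries examined for a library far from the other 3 (40 genes and 14 marker sums in each genotype), 10 had one. Chance alone gives about 1 in 20 such groups, but the groups are not independent: MAP3K20 was named for its likeness to AQP1 over these libraries. In wild-type piglet 5, AQP1 was 689 CPM, against 329 to 339 CPM in the other wild-type piglets. The same library held the highest CFTR (56.6 CPM, against 34.0 to 36.6 CPM), DUOX1 (1.90 CPM, against 0.791 to 0.954 CPM) and MAP3K20 (27.8 CPM, against 12.1 to 13.9 CPM) of its group. Its endothelial markers summed to 463 CPM, against 231 to 265 CPM.

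In knockout piglet 18 the summed markers were 22244 CPM for fibroblasts, 6692 CPM for bone, 436 CPM for astrocytes (146 to 191 CPM in the other knockout piglets) and 192 CPM for leukocytes (20.6 to 34.4 CPM in the others). The largest part of that astrocyte sum was GJA1, at 324.8 CPM, against 58.4 to 96.9 CPM in the other knockout piglets. GFAP was also highest in knockout piglet 18, at 81.98 CPM, against 43.83 to 52.52 CPM. SLC1A2 was lowest there, at 22.97 CPM, against 29.92 to 40.84 CPM. ALDH1L1 (5.94 CPM) lay within the range of the others (3.78 to 7.68 CPM). The astrocyte content of this library was not tested. In knockout piglet 21 the skeletal muscle markers summed to 143 CPM, against 118 to 121 CPM in the other knockout piglets. Nearly all of that sum was ACTA1 (142.5 CPM), with CKM at 0.0946 CPM and TNNT3 at 0.166 CPM.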

How the results depend on the processing

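All 16 alternatives left AQP1, AQP3, AQP4 and AQP5 with the sign they had and with no call. Adjusted p ranged from 0.326 to 0.806 for AQP1, 0.289 to 0.762 for AQP3, 0.673 to 0.974 for AQP4 and 0.259 to 0.800 for AQP5. With 1 library left out, log2 fold changes ran from -0.60 to -0.13 for AQP1, -0.38 to -0.21 for AQP3, 0.024 to 0.25 for AQP4, -0.31 to -0.11 for AQP5 and -0.080 to 0.056 for AQP11. The sign of AQP11, close to 0 throughout, was positive in 5 alternatives, among them limma with sample quality weights (0.024) and the omission of wild-type piglet 5 and knockout piglet 18 together (0.015). The cause was not tested. CFTR ran from -2.67 to -2.36 with 1 library left out. The number of genes called was 219 with DESeq2, 11 with limma and 2 without wild-type piglet 5 and knockout piglet 18, against 1, and 0 to 16 with 1 library left out (16 without wild-type piglet 12, 0 without knockout piglet 6 or 20). List medians near 0 changed sign for cell volume channels (-0.063 to 0.036), trafficking (-0.066 to 0.040) and peroxide genes (-0.24 to 0.079). With 1 library left out, those of osmotic stress genes ran from 0.030 to 0.18 and of glycerol genes from -0.14 to -0.025. No paired analysis was possible because the piglet numbers are not shared between the genotypes. Without replicate libraries per piglet, animal and technical spread cannot be separated.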

Other observations

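Each aquaporin was also divided, within each library, by the summed CPM of each of 14 marker lists. Of these 70 ratios 5 did not overlap between the genotypes, 7.14% of them. The share over all genes tested was 5.81%, but for the CPM of single genes. The ratios share aquaporins and marker sums, so these shares are not on one scale. The 5 ratios were chosen after their values were seen and carry no test. The ratio of AQP1 to endothelial markers was 0.915 to 1.25 in knockout piglets and 1.28 to 1.49 in wild-type piglets. Wild-type piglet 5, the outlying library for AQP1, had the highest ratio, and the part of vessel content was not tested. Divided by each of the 8 endothelial genes alone, AQP1 did not overlap between the genotypes for 2 of them, CDH5 and TEK. The ratio of AQP4 to olfactory glia markers was 0.138 to 0.177 in knockout piglets and 0.0681 to 0.111 in wild-type piglets. Over 5 genes those glia markers summed to 69.2 to 100.04 CPM in knockout and 101.5 to 163 CPM in wild-type piglets. All 5 had a log2 fold change below 0, but only NGFR did not overlap between the genotypes. NGFR was 14.2 to 20.4 CPM in knockout and 32.2 to 41.7 CPM in wild-type piglets (edgeR adjusted p = 0.0737). The part of glia content in this ratio was not tested. The other 3 ratios were those of AQP3, AQP5 and AQP11 to mature neuron markers, each lower in every knockout piglet. The neuron markers themselves summed to 5221 to 6121 CPM in knockout and 3253 to 5195 CPM in wild-type piglets, which is the denominator of all 3.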
